A study of Mus musculus with 28 samples.

Results

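The last interval of a differentiation time course of mouse muscle cells was examined here, from 60 to 96 h after the change of medium. Its members are all genes of the RNA sequencing count table, compared between the 3 libraries labelled 96 h and the 3 labelled 60 h, 6 of the 18 RNA libraries and of the 28 libraries of all kinds in the series as given here. Of 49089 genes in the table, 22315 had no count in any of the 18 libraries and 15303 passed the filter on low counts and were tested. The cells are C2C12, an established line of mouse myoblasts labelled wild type in every group, so both groups are 1 line with no genotype difference between them. Growth medium (GM) held 20% fetal bovine serum. Near confluence it was exchanged for differentiation medium (DM) with 3% horse serum, in which the 60 h and 96 h groups both remained. The last time is 96 h in the titles, the treatments and the extraction protocol, but the growth protocol gives last times that differ from sample to sample, so the length of the interval rests on the former. RNA was also taken in GM and after 12, 24 and 48 h in DM, 3 libraries each. The 3 libraries of a group are labelled biological replicates, but no separate cultures or days are described, so the p-values measure a spread between libraries that may be technical.

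Serum withdrawal makes confluent myoblasts leave the cell cycle, and cells that express the basic helix-loop-helix factor myogenin then fuse into multinucleated myotubes. Fused cells go on to assemble sarcomeres, the repeating units in which myosin thick filaments pull on actin thin filaments, together with the membrane system that couples excitation to calcium release. A share of C2C12 cells does not fuse and persists as mononucleated cells, often called reserve cells, so a bulk library at a late time holds more than one kind of cell. In such libraries a smaller number of cells of a type and less RNA per cell cannot be told apart.

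The 60 h libraries held 25190013, 27771576 and 32760368 counts and the 96 h libraries 31308032, 30758748 and 30454492 counts. Protein-coding genes took 65.5 ± 0.379% (SD, n = 3) of counts at 60 h and 68.4 ± 0.929% at 96 h, and the 7SL RNA genes Rn7s1 and Rn7s2 took 23.8 ± 0.643% and 21.5 ± 1.46%. Mitochondrially encoded genes took 0.852 ± 0.0212% and 1.02 ± 0.082%. Levels below are given in CPM, counts scaled to each library's effective size with no correction for gene length, so levels are compared between libraries and not between genes. In 1 of the 3 libraries at 24 h, 86 transcripts stood apart from the other 2, and the level of the same transcripts was lowest at 60 h and highest at 96 h among the 6 groups. A fit that held this level as a further term is called the adjusted fit below. For gene lists whose counts of calls are given in the text, the counts in that fit are given with the set, near the end. Genes of the text named by rule that lost the call in that fit are given there too. For other genes of the text, such as Aqp1, Erbb3 and Vim, its values are not given. The label of a muscle culture was checked on marker lists. The summed level of 8 myotube markers was 5100 to 5370 CPM at 60 h, 12800 to 14700 CPM at 96 h and 801 to 842 CPM in GM. Much of that sum was 1 gene, Ttn, with means of 2627 CPM at 60 h and 7688 CPM at 96 h. Ttn is among the 86 transcripts, and all 8 markers were called higher, also in the adjusted fit. The 5 markers of proliferating myoblasts summed to 450 to 467, 159 to 180 and 1270 to 1320 CPM in the same order. Of these 5 markers 4 fell and Pax7 rose. Fibroblast and tendon markers summed to 333 to 340 CPM at 60 h and 335 to 344 CPM at 96 h. Of these 8 markers 6 were tested, of which Pdgfra and Scx rose and Ly6a fell, and Thy1 and Tnmd were at 0 counts. Endothelial markers stayed under 2.04 CPM and macrophage markers under 1.45 CPM in sum, with the macrophage gene Adgre1 at 0. Adipocyte markers summed to 22 to 27.2 CPM at 60 h and 20.8 to 21 CPM at 96 h, with Cfd and Lep at 0.

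Between 60 and 96 h, 3455 genes rose (22.6% of those tested) and 3769 fell (24.6%) at an adjusted p under 0.05 in edgeR's quasi-likelihood test, 7224 in all (47.2%). Most of these changes were small. The median size among the called genes was 0.402 on the log2 scale, 2277 of the rises and 2554 of the falls were under 1.5-fold, and 1181 genes (7.72%) were called and changed at least 2-fold, 556 up and 625 down. The median log2 change over all tested genes was -0.03. Changes given below are fitted log2 fold changes, 96 h minus 60 h, with the SE after ± where it is given. In 6982 genes (45.6%) the call came with no overlap between the 3 libraries of one time and the 3 of the other. Most called genes thus lacked overlap, so its absence, where given below, adds little to a call. For the largest rises and falls it was a condition of the choice. Protein-coding genes made up most of the calls, with 3339 higher and 3525 lower of 12841, while 66 of 825 long non-coding genes rose and 83 fell.

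**Figure D1:**
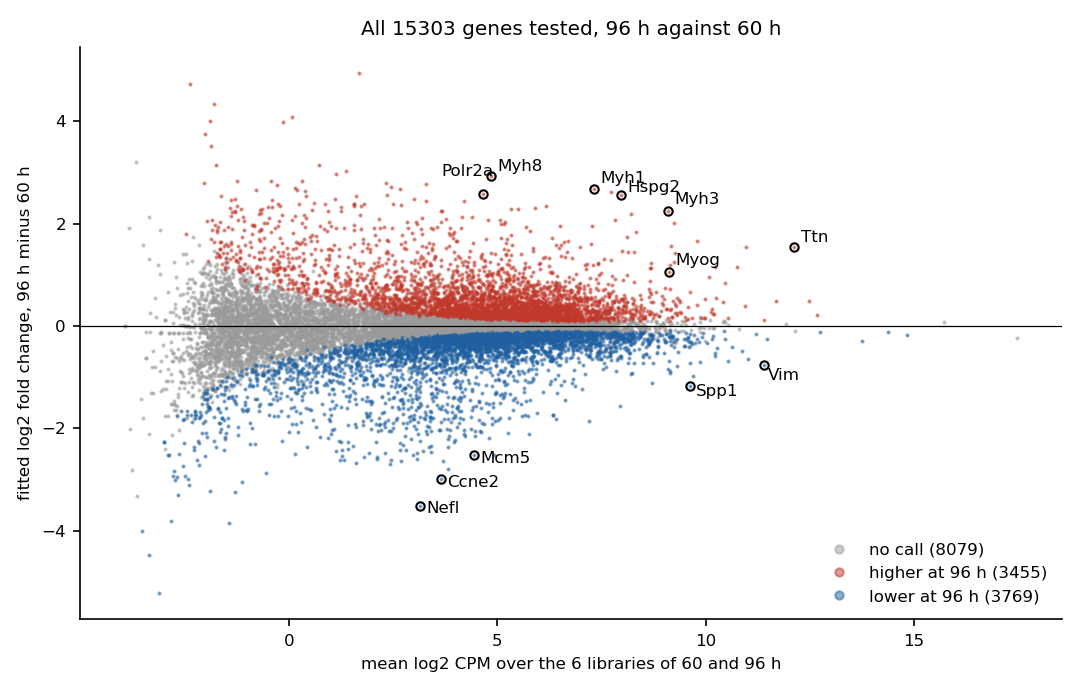
Fitted log2 fold change from 60 to 96 h (vertical axis) against the mean log2 CPM over the 6 libraries (horizontal axis), one point for each of the 15303 genes tested. Red points mark the 3455 genes called higher at 96 h, blue points the 3769 called lower and grey points the 8079 with no call, and 12 genes are labelled, with Myh8 and Myh1 far above 0 and Nefl and Ccne2 far below.

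The largest rises included genes of the sarcomere lists and the largest falls 3 of the DNA replication list, Ccne2, Mcm5 and Tk1. Among well-measured genes (mean log2 CPM of 3 or more, no overlap between the groups), the largest rises included Myh8, Ablim3, Myh1, Myl4, Polr2a, Hspg2, Myh4, Ankrd2, Cav3, Trim72, Cacna1s, Mb, Pygm and Myoz2. They spanned log2 changes from 2.24 for Myoz2 to 2.92 for Myh8. Of these, Myh8, Myh1, Myh4, Myl4, Ankrd2 and Myoz2 are on the sarcomere lists, and Ablim3, an actin-binding LIM protein, had 3.95, 3.17 and 4.04 CPM at 60 h and 25.5, 24.7 and 26.4 CPM at 96 h (2.77 ± 0.11). Pygm, muscle glycogen phosphorylase, is listed in 2 lines of the table whose reads could be split between them, so its value is uncertain. The 15 largest falls were Nefl, Ccne2, 2810417H13Rik, Hist1h1a, Prl2c3, Mcm5, Uhrf1, Tcf19, Esco2, Hist1h2ad, Clspn, Tk1, Fbxo5, Brca1 and Ercc6l, from -3.51 for Nefl to -2.25 for Ercc6l. Nefl, the light neurofilament subunit, had 27.3, 34 and 27.9 CPM at 60 h and 2.21, 2.86 and 2.78 CPM at 96 h, a level 11.4-fold lower (log2 change -3.51 ± 0.11, SE, adjusted p 2.4e-16). All 3 libraries of 96 h lay far under the lowest of 60 h. Prl2c3, a proliferin of the prolactin family, had 18, 25.2 and 18.4 CPM at 60 h and 3, 3.83 and 3.34 CPM at 96 h (log2 change -2.6 ± 0.12).

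Myosin heavy chains, the motors of the thick filament, were measured as developmental, adult fast and slow forms, and members of each kind rose. All 6 tested genes of the developmental list rose, with a median log2 change of 1.95. The embryonic chain gene Myh3 had 257, 220.3 and 280.3 CPM at 60 h and 1193, 1151 and 1234 CPM at 96 h, and the perinatal chain gene Myh8 had 12, 8.67 and 11.1 CPM at 60 h and 82.6, 74.5 and 83.2 CPM at 96 h. Neither gene's groups overlapped, and the folds were 4.72-fold (log2 change 2.24 ± 0.07, adjusted p 2.3e-16) and 7.57-fold (2.92 ± 0.12, 1.4e-14). Myl4, the embryonic essential light chain, had 88.2, 74.6 and 96.7 CPM at 60 h and 526, 510.1 and 559 CPM at 96 h, a log2 change of 2.62 ± 0.08.

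Of 13 tested genes of the adult fast list, 12 rose, with a median of 1.59. Myh1, the fast 2X chain, had 66.8, 58.8 and 65.6 CPM at 60 h and 409.5, 395 and 424 CPM at 96 h, a log2 change of 2.68 ± 0.07 with no overlap (adjusted p 1.4e-17). Myh4, the 2B chain, had 3.49, 2.9 and 3.78 CPM at 60 h and 19.2, 18.7 and 18.8 CPM at 96 h, and Myh2, the 2A chain, had 3.2, 2.25 and 2.1 CPM at 60 h and 16.4, 14.6 and 16.7 CPM at 96 h. Each of the 96 h libraries was above every 60 h library for both, with log2 changes of 2.47 ± 0.13 and 2.67 ± 0.15, the second without a call in the adjusted fit. Mybpc2, fast myosin binding protein C, rose by 4.09 ± 0.35 from a low level of 0.23 CPM. The calcium pump Atp2a1, the calsequestrin Casq1 and the fast troponin I gene Tnni2 rose by 1.95, 1.92 and 1.59. Mylk2, skeletal myosin light chain kinase, was the member without a call, at 0.13 ± 0.09.

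Slow isoforms changed in the same direction over the interval, with 9 of 10 tested members higher, 1 lower and a median of 1.72. Myh7, the slow and cardiac beta chain, had 15.6, 17.2 and 16.6 CPM at 60 h and 69.7, 64.4 and 73.1 CPM at 96 h, a log2 change of 2.07 ± 0.10 without overlap. Myl2, the slow regulatory light chain, rose by 4.94 ± 0.21 from 0.573 to 17.3 CPM, and Myh7b and the slow troponin I gene Tnni1 rose by 1.97 and 1.83. Casq2, the slow and cardiac calsequestrin, had 166, 129 and 164 CPM at 60 h and 515, 491 and 512 CPM at 96 h (1.73 ± 0.08). Mybpc1, slow myosin binding protein C, had 2.16, 1.83 and 1.68 CPM at 60 h and 6.91, 5.98 and 5.49 CPM at 96 h (1.7 ± 0.21). Tpm3, whose gene makes a slow muscle tropomyosin as well as a cytoskeletal one, was the member that fell (-0.42 ± 0.04). Counts per gene cannot separate its isoforms. Among cardiac markers, the 60 h sum was 11.2 to 12.4 CPM and the 96 h sum 18.3 to 20.6 CPM, with Hcn4 and Nppa at 0. The cardiac alpha chain gene Myh6 (1.91) and the troponin Tnni3 (1.13) rose, while the natriuretic peptide gene Nppb fell by 0.88.

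**Figure D2:**
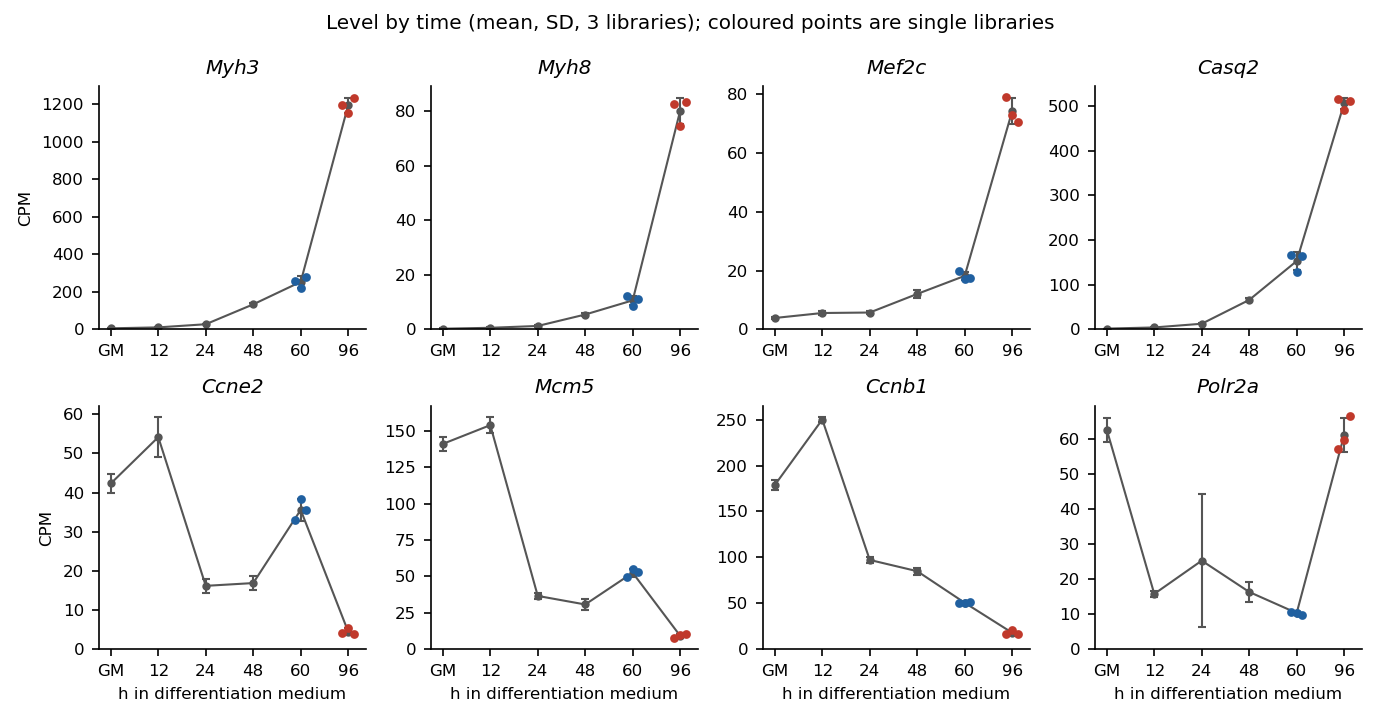
Level in CPM (vertical axes, linear from 0) of 8 genes in GM and after 12 to 96 h in differentiation medium (horizontal axes, evenly spaced groups). Grey points and bars are the mean and SD of 3 libraries, and the coloured points are the single libraries of 60 h (blue) and 96 h (red), which do not overlap in any of the 8 genes.

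Thin filaments consist of actin with tropomyosin, troponin and their length-setting partners. Of 15 tested genes of that list, 13 rose and 1 fell, with a median of 1.09. Skeletal alpha-actin, Acta1, had 517, 455 and 535 CPM at 60 h and 1519, 1489 and 1764 CPM at 96 h, and the groups did not overlap (log2 change 1.66 ± 0.07). Nebulin, Neb, the giant protein that runs along the thin filament, had 145, 125 and 146 CPM at 60 h and 626, 588 and 667 CPM at 96 h (2.18 ± 0.09). Klhl41, which stabilises nebulin, had 55.5, 47.3 and 56.6 CPM at 60 h and 164, 159 and 157 CPM at 96 h (1.59 ± 0.07), and the leiomodin Lmod2 and cardiac alpha-actin Actc1 rose by 1.67 and 1.52. The nebulin relative Nebl fell by 1.14 ± 0.21, and the tropomodulin Tmod4 had no call at -0.61 ± 0.43.

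Titin, the spring that spans from Z-disc to M-band, and its anchoring proteins were higher together, with 27 of 28 tested members higher, none lower and a median of 1.49. Ttn had 2746, 2639 and 2496 CPM at 60 h and 7691, 6992 and 8381 CPM at 96 h, a log2 change of 1.55 ± 0.15 without overlap (0.41 in the adjusted fit, of whose set Ttn is a member). The Z-disc alpha-actinin Actn2 (2.71), the small heat shock protein Hspb7 (2.53), the titin-binding ankyrin repeat protein Ankrd2 (2.44) and the calsarcin Myoz2 (2.24) were among those with the largest changes. Ankrd2 had 8.69, 6.42 and 8.48 CPM at 60 h and 40.3, 43.9 and 43.6 CPM at 96 h. Desmin, Des, the intermediate filament that ties Z-discs together, changed less, with 1139, 1177 and 1188 CPM at 60 h and 1562, 1563 and 1726 CPM at 96 h (0.47 ± 0.05), and its groups did not overlap. Myoz1 had no call at 1.18 ± 0.50.

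Genes of the calcium store and of excitation-contraction coupling rose in 25 of 29 tested cases and fell in 2, with a median of 1.16. The voltage sensor Cacna1s had 28.7, 24.8 and 28.4 CPM at 60 h and 133, 123 and 146 CPM at 96 h (2.29 ± 0.08), and the calcium release channel Ryr1 had 82.8, 73.4 and 80 CPM at 60 h and 297, 284 and 330.4 CPM at 96 h (1.95 ± 0.09). Both sides of that junction were thus higher in each 96 h library than in any 60 h library. The muscle sodium channel Scn4a rose by 2.79, and the caveolin Cav3, which shapes the muscle membrane, had 4.74, 3.17 and 4.7 CPM at 60 h and 22.5, 21.7 and 23.9 CPM at 96 h (2.43 ± 0.13). Asph and the calmodulin gene Calm3 fell, with log2 changes of -0.62 and -0.40, and the calcium buffer Pvalb (-0.34) and the pump regulator Mrln (-0.18) had no call. Trim72, which patches membrane wounds, had 32.1, 31.1 and 32.1 CPM at 60 h and 158, 160.0 and 167 CPM at 96 h (2.35 ± 0.08).

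At the neuromuscular junction list, 10 of 11 tested genes rose, with a median of 0.75. The collagen tail of acetylcholinesterase, Colq (2.11), and the fetal acetylcholine receptor subunit gamma, Chrng (1.66), rose most, followed by the delta subunit Chrnd (0.97), agrin, Agrn (0.84), and the kinase adaptor Dok7 (0.81). Rapsn, which clusters the receptor, had no call at -0.07 ± 0.05. In the dystrophin complex, which links the cytoskeleton to the matrix, 11 of 17 rose and 2 fell, with a median of 0.34. Dystrophin, Dmd, rose by 2.63 ± 0.34, a call lost in the adjusted fit, dystroglycan, Dag1, by 1.28 and alpha-sarcoglycan, Sgca, by 0.83, while annexin Anxa1 and dystrobrevin Dtna fell, with log2 changes of -0.78 and -0.19.

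**Figure D3:**
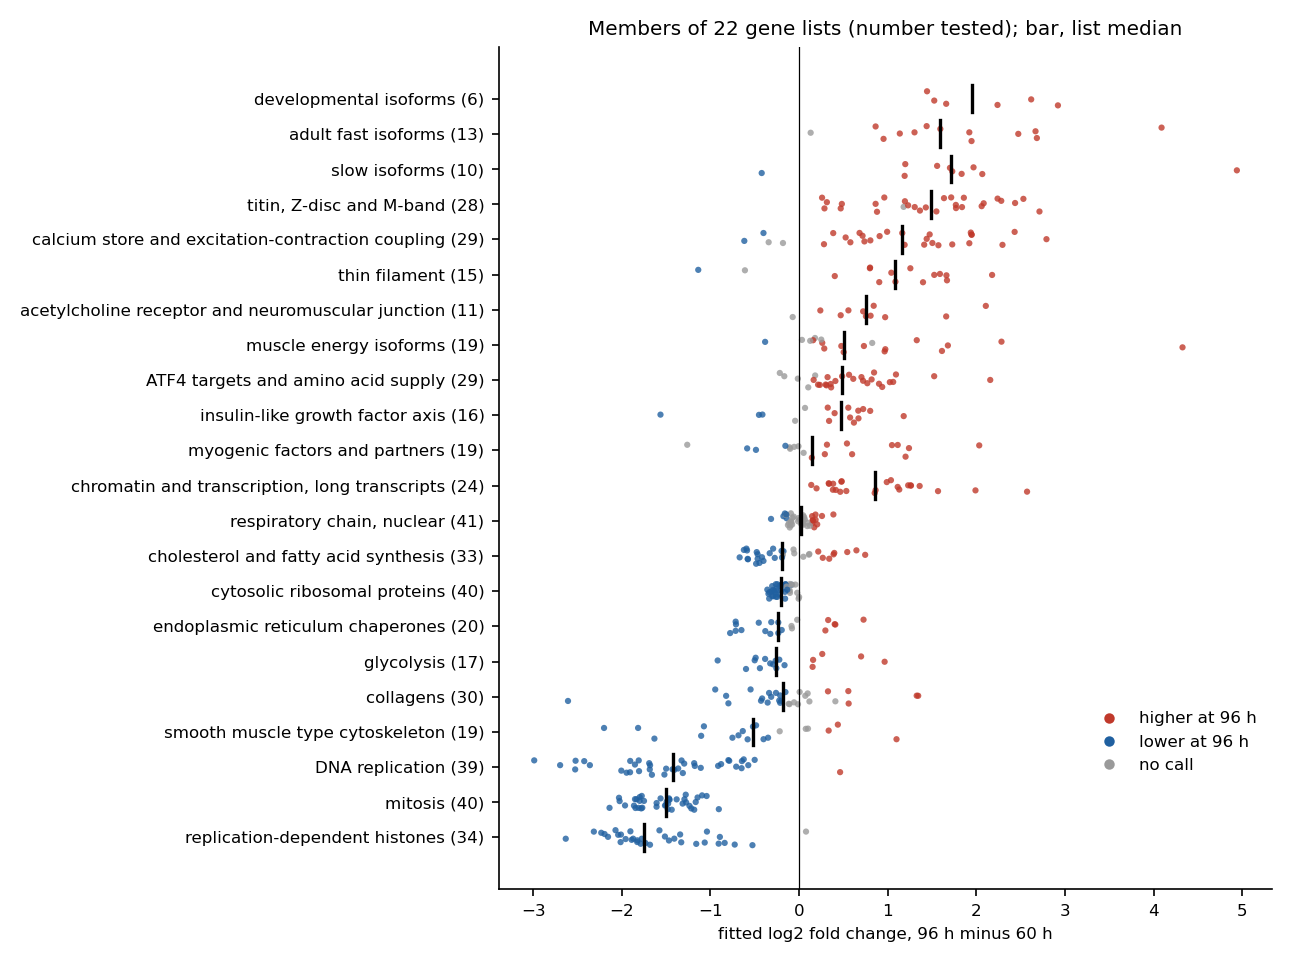
Fitted log2 fold change from 60 to 96 h (horizontal axis) of the tested members of 22 gene lists (vertical axis, number tested in brackets), red where called higher, blue where called lower and grey with no call. Black bars are list medians, which run from about 1.95 for developmental isoforms to -1.75 for replication-dependent histones, and the median over all tested genes is -0.03.

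Energy genes moved unevenly. Of 19 muscle-type energy genes, 13 rose and 1 fell (median 0.50), while of 17 genes of glycolysis in general 5 rose and 12 fell (median -0.26). The lists share Pfkm, Aldoa, Gapdh and Ldha, and Ldha was the member of the muscle list that fell. Without the first 60 h library or the third 96 h library, 3 glycolysis genes rose. Myoglobin, Mb, the oxygen store, had 20.4, 19.4 and 22.1 CPM at 60 h and 101, 99.7 and 101 CPM at 96 h (2.28 ± 0.09), and muscle creatine kinase, Ckm, had 43.6, 38.9 and 48.2 CPM at 60 h and 108, 105 and 116 CPM at 96 h (1.33 ± 0.09). No 96 h library of either gene overlapped the 60 h range. The glycogen-targeting subunit Ppp1r3a (4.33), the muscle cytochrome oxidase subunit Cox6a2 (1.68) and the muscle mutase Pgam2 (1.61) rose too, and Ppargc1a, a coactivator of mitochondrial genes, had no call at 0.25 ± 0.24. In glycolysis the muscle phosphofructokinase Pfkm (0.97) and hexokinase Hk2 (0.70) rose, while the liver-type Pfkl (-0.60), Aldoc (-0.92), Pgk1 (-0.50), Pkm (-0.49) and lactate dehydrogenase Ldha (-0.38) fell. Nuclear genes of the respiratory chain moved little, with 10 higher and 6 lower of 41, and a median of 0.02. The count of falls was unstable, with 3 without the third 60 h library and 10 under upper-quartile scaling or with protein-coding genes alone. Of 29 genes of the citrate cycle and fatty acid oxidation 10 rose and 8 fell, with a median of 0.01. Among them the fatty acid transporter Cd36 and the binding protein Fabp3 rose by 1.79 and 0.93 and the mitochondrial entry enzyme Cpt1a fell by 0.69.

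Transcription factors of the myogenic programme changed by unequal amounts. Of 19 tested factors and partners 10 rose and 3 fell, with a median of 0.14. Mef2c, a MADS-box partner of the myogenic factors, had 19.7, 17.1 and 17.6 CPM at 60 h and 79, 73 and 70.6 CPM at 96 h, a 4.09-fold higher level (2.03 ± 0.09). Myogenin, Myog, had 400.5, 354 and 409.9 CPM at 60 h and 790.5, 798 and 820.1 CPM at 96 h (1.05 ± 0.06), and Myod1 had 78.1, 76.1 and 73.3 CPM at 60 h and 94.1, 87.1 and 102 CPM at 96 h (0.31 ± 0.07). The groups of these genes did not overlap, but the change of Myod1 was small and had no call in the adjusted fit. The TEAD factors Tead4 and Tead1 rose by 1.24 and 1.2 and Mef2d by 1.11. Myf5, the early myogenic factor, had 44.3, 46.4 and 46 CPM at 60 h and 33.1, 32.9 and 31.5 CPM at 96 h and fell (-0.49 ± 0.06), as did Vgll2 (-0.59) and Eya1 (-0.15). The call of Eya1 was lost without the first 60 h library, the second 96 h library or the third 96 h library, and under several other settings. Myf6, the late factor MRF4, had no call at -1.26 ± 0.57 (adjusted p 0.073).

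Fusion genes rose in 7 of 17 cases and fell in 3. The fusogens myomaker and myomixer act in the merging membranes. Mymk had 78.5, 66.2 and 78.5 CPM at 60 h and 214, 197 and 237 CPM at 96 h, and Mymx had 34.3, 29.9 and 38 CPM at 60 h and 75.1, 72 and 75.1 CPM at 96 h. Neither gene's groups overlapped, and both rose (1.54 ± 0.06 and 1.12 ± 0.07), as did the membrane repair protein Dysf (1.5). Dock1, Rac1 and Jam2, of actin signalling and adhesion in fusion, fell, with log2 changes of -0.27, -0.13 and -0.12. These falls were fragile: the list had 1 without the second 60 h library or the first 96 h library and 0 without the second 96 h library. Among splicing regulators, 8 of 16 rose and 5 fell. The muscle regulators Rbfox1 (2.06), Rbm38 (1.64) and Rbm24 (1.05) led the rises, and the SR proteins Srsf7 (-0.46) and Srsf3 (-0.45) fell.

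Genes that restrain myogenesis moved in both directions. Of 16 Id and Notch genes, 6 rose and 7 fell (median -0.41). The inhibitors Id1, Id2 and Id3, which sequester the partners of myogenic factors, fell, with log2 changes of -0.66, -0.65 and -0.71, and the Notch effectors Hey1 and Hes1 fell too (-0.90 and -0.57). The receptors Notch1, Notch2 and Notch3 rose by 1.15, 0.53 and 0.77. Genes of satellite cells and reserve cells rose in 8 of 16 cases and fell in 5, among them Cd34 (-1.23 ± 0.05) lower and Pax7, the factor of quiescent muscle stem cells (0.43 ± 0.10), Spry1 (0.64) and Ncam1 (0.92) higher. Without the second 96 h library 3 of the list fell.

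Genes of mitosis, DNA replication and replication-dependent histones were nearly all lower at 96 h. All 40 tested genes of the mitosis list fell, with a median of -1.5 and a smallest change of -0.91 for Cenpf. Ncapg, a condensin subunit that compacts mitotic chromosomes, had 46.8, 45.6 and 47.4 CPM at 60 h and 10.7, 11.8 and 9.28 CPM at 96 h (-2.14 ± 0.07, adjusted p 5.7e-16). The topoisomerase Top2a, which untangles sister chromatids, had 288, 272 and 283 CPM at 60 h and 78.4, 84.4 and 70.8 CPM at 96 h (-1.85 ± 0.06), and the spindle motor Kif11 had 58.7, 59.2 and 58 CPM at 60 h and 16.4, 17.6 and 14.9 CPM at 96 h (-1.85 ± 0.06). The 96 h libraries of all 3 genes lay below every 60 h library. The checkpoint kinase Bub1 (-2.03), the kinetochore protein Ndc80 (-2.03), the spindle protein Nusap1 (-1.96) and Aurkb (-1.86) fell in like measure. The cyclin Ccna2 had 61.7, 58.8 and 61.8 CPM at 60 h and 17.5, 17.2 and 16.4 CPM at 96 h (-1.83 ± 0.05), and the proliferation antigen gene Mki67 had 77.9, 75.8 and 73.2 CPM at 60 h and 33.7, 32.7 and 31.2 CPM at 96 h (-1.22 ± 0.05).

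Of 39 tested DNA replication genes, 38 fell and 1 rose, with a median of -1.43. Ccne2, the cyclin that partners CDK2 at the start of S phase, had 32.9, 38.4 and 35.4 CPM at 60 h and 4.08, 5.41 and 3.94 CPM at 96 h, a 7.94-fold lower level (-2.99 ± 0.12, adjusted p 9.4e-15). Mcm5, a subunit of the replicative helicase, had 49.5, 55 and 53 CPM at 60 h and 7.67, 9.51 and 10.2 CPM at 96 h (-2.53 ± 0.09), and Cdc6, which loads that helicase, had 13.3, 13.6 and 13.5 CPM at 60 h and 2.07, 2.29 and 1.86 CPM at 96 h (-2.7 ± 0.09). None of these groups overlapped. Uhrf1, which maintains DNA methylation behind the fork, had 70.8, 75.2 and 72.1 CPM at 60 h and 12.1, 13.2 and 12.6 CPM at 96 h (-2.52 ± 0.05). The thymidine kinase gene Tk1 fell by 2.36, and the initiation factor Mcm10 fell by 2.42. E2f2, an activating member of the E2F family, was the member that rose, by 0.46 ± 0.07.

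Replication-dependent histones, made in S phase to package new DNA, fell in 33 of 34 tested cases, with a median of -1.75. The linker histone Hist1h1a had 32.3, 32.3 and 31.9 CPM at 60 h and 4.74, 5.41 and 5.42 CPM at 96 h (-2.63 ± 0.06) without overlap, and Hist1h3g, Hist1h3b and Hist1h1b fell, with log2 changes of -2.32, -2.23 and -2.19. Hist1h2bc had no call at 0.08. Many of these genes are near-identical copies between which reads may be split, so the value of a single copy is uncertain.

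Inhibitors and mediators of cell cycle exit were divided, with 8 higher and 8 lower of 18. The CDK inhibitor Cdkn1a (p21) had 90.9, 96.7 and 97.5 CPM at 60 h and 211, 196 and 212 CPM at 96 h and rose by 1.12 ± 0.05 without overlap. The retinoblastoma gene Rb1 (0.76) and the antiproliferative Tob1 (0.89) rose, whereas the related pocket protein gene Rbl1 (-1.38) and the INK4 genes Cdkn2c (-0.83) and Cdkn2d (-0.49) fell. The G1 cyclin Ccnd1 had 87, 103 and 82.1 CPM at 60 h and 33.1, 32.7 and 34.1 CPM at 96 h and fell by 1.45 ± 0.07.

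The interval was set beside the one before it. From 48 to 60 h, 2425 genes rose (15.8%) and 1732 fell (11.3%), and 193 (1.26%) were called and changed at least 2-fold. From 48 to 96 h, 7605 genes were called (49.7%), of which 4043 rose (26.4%) and 3562 fell (23.3%), with 1479 (9.66%) called at 2-fold or more. These comparisons share the 48, 60 or 96 h libraries with the step from 60 to 96 h, so a library's own deviation enters more than one of them. Of the 39 DNA replication genes, 33 rose from 48 to 60 h and none fell (median 0.38), while 38 fell and 1 rose from 48 to 96 h (median -1.03). Ccne2 changed by 1.08 and Mcm5 by 0.78 from 48 to 60 h, against -2.99 and -2.53 in the step that followed. Mitosis genes fell in both intervals, 36 of 40 from 48 to 60 h and 40 of 40 afterwards, with medians of -0.50 and -1.5. Histone genes fell in 25 of 34 cases and then in 33.

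For muscle lists the calls of both intervals were mostly rises. All 13 adult fast genes were higher at 96 than at 48 h, and 10 had risen by 60 h. Of the 28 titin, Z-disc and M-band genes, 19 rose and 1 fell from 48 to 60 h, and 28 were higher at 96 than at 48 h. For the junction list, 2 of 11 rose from 48 to 60 h and 10 rose from 60 to 96 h. Calls of other lists reversed between the intervals. Chaperones of the endoplasmic reticulum rose in 15 of 20 cases from 48 to 60 h and none fell, then 12 fell and 5 rose. At 96 h, 12 of the chaperones were still higher than at 48 h and 2 were lower. Cytosolic ribosomal proteins rose in 18 of 40 cases and none fell, then 30 fell and none rose. Nuclear respiratory genes rose in 39 of 41 cases to 60 h, and 33 were still higher at 96 than at 48 h. Tagln, a smooth muscle actin-binding protein, changed by 1.55 and then by -1.82.

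**Figure D4:**
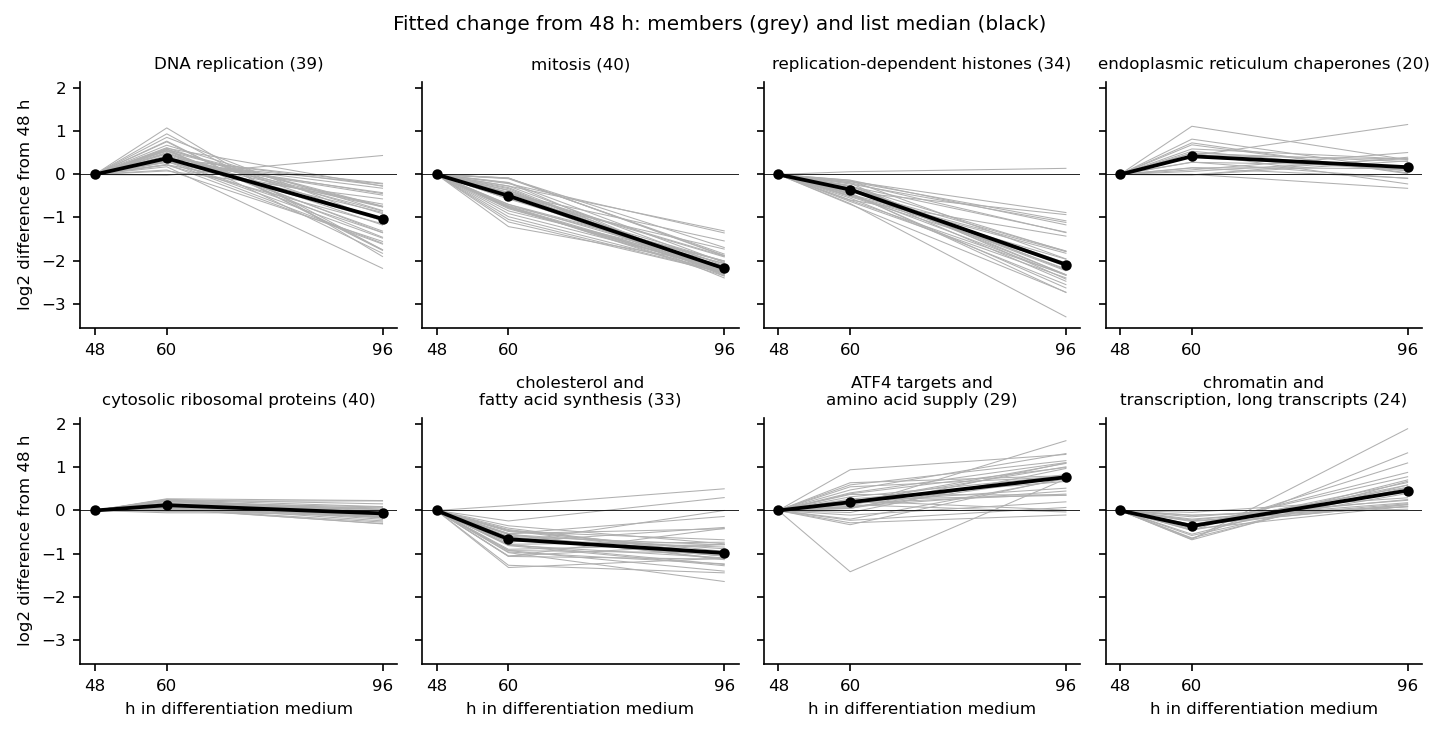
Fitted log2 difference from the 48 h group (vertical axes) at 60 and 96 h in differentiation medium (horizontal axes, to scale) for 8 gene lists, the number tested in brackets. Grey lines are members and the black line is the list median, which for DNA replication is above 0 at 60 h and below it at 96 h, while for mitosis and histones it falls in both intervals.

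Promoter sequences were set beside the genes that moved together. RefSeq promoters were matched by symbol for 10409 of the 15303 tested genes (68.0%), so shares are given only for lists with at least 80% of tested members matched, 25 of 54. Open chromatin peaks, called by the authors on their ATAC sequencing data, come from the 60 h and GM groups and not from 96 h, so they describe chromatin at the start of the interval and not its change. All 9 matched slow isoform genes had a 60 h peak over the promoter window, from 250 bases before to 50 after the start. In GM 1 had one, Tpm3, the member that fell. Of 6 developmental genes, 6 had a peak at 60 h and 4 in GM, with Myh3 and Myh8 lacking one there. For mitosis genes the counts were 31 and 31 of 32, for thin filament genes 12 and 12 of 12, and over all 27025 promoters 52.1% and 51.7%. The shares over all promoters, here and for the motifs below, include genes that were not tested. Most lists had peaks in nearly all matched promoters whatever their direction, such as 17 of 17 for glycolysis and 23 of 23 for the proteasome in both conditions.

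The sequences below, 250 bases ending at the start site, are shown because they belong to called members of the muscle lists and hold motifs counted here. They were chosen after the values were seen. Each is written from 5′ to 3′ on the gene's strand, taken from RefSeq on GRCm38.p6. Capitals mark matches on either strand to TATAAA, the MEF2 motif, CAGCTG or the CArG box, a site of serum response factor.

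Myh3, chr11:67078050-67078299 (plus strand): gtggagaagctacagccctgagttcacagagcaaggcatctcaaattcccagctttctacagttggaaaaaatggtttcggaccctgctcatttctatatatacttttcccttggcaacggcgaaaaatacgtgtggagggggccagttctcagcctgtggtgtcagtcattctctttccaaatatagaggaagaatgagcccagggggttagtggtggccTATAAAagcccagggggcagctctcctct

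Myh8, chr11:67276874-67277123 (plus strand): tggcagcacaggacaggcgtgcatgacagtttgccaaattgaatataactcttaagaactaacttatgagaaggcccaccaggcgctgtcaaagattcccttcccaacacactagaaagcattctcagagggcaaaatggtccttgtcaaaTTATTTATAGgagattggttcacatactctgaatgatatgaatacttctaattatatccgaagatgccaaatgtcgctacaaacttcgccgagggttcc

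Casq2, chr3:102086165-102086414 (plus strand): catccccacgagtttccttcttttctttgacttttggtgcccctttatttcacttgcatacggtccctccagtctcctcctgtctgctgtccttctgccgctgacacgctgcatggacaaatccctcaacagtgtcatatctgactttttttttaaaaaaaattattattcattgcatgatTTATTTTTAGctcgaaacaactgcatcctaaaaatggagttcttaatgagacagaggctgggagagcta

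Mybpc1, chr10:88605153-88605402 (minus strand): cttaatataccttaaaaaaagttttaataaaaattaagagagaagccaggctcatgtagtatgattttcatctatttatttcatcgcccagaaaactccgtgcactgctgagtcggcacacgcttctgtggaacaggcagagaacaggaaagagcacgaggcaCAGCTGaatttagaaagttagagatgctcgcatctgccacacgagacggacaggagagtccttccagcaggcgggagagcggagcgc

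Acta1, chr8:123894776-123895025 (minus strand): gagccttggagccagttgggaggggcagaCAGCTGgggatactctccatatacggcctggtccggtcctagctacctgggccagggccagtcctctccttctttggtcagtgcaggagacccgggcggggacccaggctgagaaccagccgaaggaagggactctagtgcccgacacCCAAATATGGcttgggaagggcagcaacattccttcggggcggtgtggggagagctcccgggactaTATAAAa

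Klhl41, chr2:69669870-69670119 (plus strand): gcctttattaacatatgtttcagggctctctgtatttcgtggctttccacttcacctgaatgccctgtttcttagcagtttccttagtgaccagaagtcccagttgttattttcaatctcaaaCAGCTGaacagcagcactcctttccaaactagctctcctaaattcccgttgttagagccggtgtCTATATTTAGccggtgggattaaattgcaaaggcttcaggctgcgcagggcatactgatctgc

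In Myh3 the capitals mark TATAAA 29 to 24 bases before the start, in Myh8 a MEF2 match 99 to 90 before it, and in Casq2 a MEF2 match 69 to 60 before it. Mybpc1 holds CAGCTG, the E-box bound by myogenic factors, at 87 to 82. Acta1 holds CAGCTG at 221 to 216, a CArG box at 73 to 64 and TATAAA at 7 to 2, and Klhl41 holds CAGCTG at 127 to 122 and a MEF2 match at 63 to 54. The authors' fold enrichments of the 60 h peaks here were 2.11 for Myh3, 2.35 for Myh8, 3.10 for Casq2, 2.48 for Mybpc1, 2.98 for Acta1 and 7.27 for Klhl41. In GM, Acta1 had 2.15 and Klhl41 8.46, and the other 4 had no peak. CAGCTG, which reads the same on both strands, was in 4 of 9 slow, 5 of 12 thin filament and 7 of 16 muscle energy promoters, against 14.7% of all promoters. The CArG box was in 3 of 12 thin filament promoters, against 1.62% of all, and also in 4 of 16 promoters of the smooth muscle type cytoskeleton, a list that mostly fell. MEF2 was in 3 of 16 muscle energy promoters, against 3.42%. A match is a run of letters and not a bound site.

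For the falling genes, capitals mark matches on either strand to CCAAT, bound by the factor NF-Y, to TTTGAA, the core of the cell cycle homology region, and to the E2F motif, searched as TTTCCCGC, TTTCGCGC, TTTGCCGC and TTTGGCGC.

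Ncapg, chr5:45669675-45669924 (plus strand): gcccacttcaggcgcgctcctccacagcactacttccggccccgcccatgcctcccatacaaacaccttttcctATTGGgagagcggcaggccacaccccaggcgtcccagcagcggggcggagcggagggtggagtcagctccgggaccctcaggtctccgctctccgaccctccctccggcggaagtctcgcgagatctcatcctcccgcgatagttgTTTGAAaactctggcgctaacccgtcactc

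Kif11, chr19:37376132-37376381 (plus strand): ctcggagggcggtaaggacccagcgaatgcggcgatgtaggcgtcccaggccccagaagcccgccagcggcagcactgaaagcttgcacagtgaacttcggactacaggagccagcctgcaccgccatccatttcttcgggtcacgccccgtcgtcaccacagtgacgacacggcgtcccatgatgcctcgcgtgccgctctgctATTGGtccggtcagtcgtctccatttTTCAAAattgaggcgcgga

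Top2a, chr11:99024190-99024439 (minus strand): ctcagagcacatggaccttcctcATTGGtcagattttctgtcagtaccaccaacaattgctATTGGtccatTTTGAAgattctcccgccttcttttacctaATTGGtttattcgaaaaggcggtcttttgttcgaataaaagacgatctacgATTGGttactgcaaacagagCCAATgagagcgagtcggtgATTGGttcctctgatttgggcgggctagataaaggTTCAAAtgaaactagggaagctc

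Cdc6, chr11:98907901-98908150 (plus strand): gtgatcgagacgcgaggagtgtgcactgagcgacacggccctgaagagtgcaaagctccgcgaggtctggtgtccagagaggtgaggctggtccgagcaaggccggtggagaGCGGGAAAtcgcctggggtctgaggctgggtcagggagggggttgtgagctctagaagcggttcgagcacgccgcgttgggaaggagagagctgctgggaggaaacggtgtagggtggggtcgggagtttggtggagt

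TTTGAA lies 30 to 25 bases before the start in Ncapg and, on the reverse strand, 19 to 14 before it in Kif11 and 23 to 18 in Top2a. Kif11 has a reverse CCAAT at 45 to 41, Top2a has 6 CCAAT matches in all and a further TTTGAA at 179 to 174, and Cdc6 has a reverse E2F match at 138 to 131. All 4 promoters had peaks in both conditions, with folds at 60 h and in GM of 7.50 and 7.08 for Ncapg, 7.94 and 6.10 for Kif11, 6.56 and 6.25 for Top2a and 8.36 and 7.40 for Cdc6. CCAAT was in 23 of 32 mitosis promoters (71.9%), 27 of 30 histone promoters (90.0%) and 16 of 17 promoters of endoplasmic reticulum chaperones (94.1%), against 37.5% of all. It was also common in lists that rose or were divided, in 10 of 14 clock promoters (71.4%), 10 of 15 of CDK inhibitors (66.7%) and 14 of 24 of ATF4 targets (58.3%). TTTGAA was in 14 mitosis (43.8%) and 12 histone promoters (40.0%), against 18.3%, and both motifs were in 13 of 32 mitosis promoters, 12 of 30 histone promoters and 1984 of all 27025. Histone promoters also held TATAAA in 17 of 30 cases (56.7%, all promoters 14.3%). Divergent histone pairs share a promoter and copies are near-identical, so those counts are not independent.

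Around the cells, matrix and cytoskeletal genes divided. Fibronectin, Fn1, the adhesive matrix protein, had 1172, 1200.0 and 1154 CPM at 60 h and 3235, 3220.0 and 3806 CPM at 96 h (1.54 ± 0.16, and 0.33 in the adjusted fit, of whose set it is a member), and tenascin, Tnc, had 163, 170.3 and 159.6 CPM at 60 h and 57.5, 57.8 and 66.2 CPM at 96 h (-1.44 ± 0.06). Osteopontin, Spp1, had 1141, 1208 and 1211 CPM at 60 h and 519, 502 and 556 CPM at 96 h (-1.18 ± 0.05). Fn1 was thus higher and Tnc and Spp1 lower in every 96 h library. Of 23 matrix glycoproteins and proteoglycans tested 10 rose and 8 fell. Of 17 genes of laminins and the basement membrane, the sheet that surrounds each fibre, 9 rose and 6 fell. The proteoglycan perlecan, Hspg2, had 107, 107 and 98.6 CPM at 60 h and 581, 567 and 695 CPM at 96 h (2.56 ± 0.23, and 0.94 in the adjusted fit, of whose set it is a member), and Lama1 and Lama5 rose by 1.52 and 0.99 while nidogen, Nid1, fell by 0.44. Of 30 collagens 5 rose and 16 fell, with Col1a1 (1.34) higher, its partner chain Col1a2 without a call (-0.11) and Col8a2 (-2.61), Col18a1 (-0.95) and Col5a3 (-0.82) lower. Of 20 matrix proteases and inhibitors 11 rose and 6 fell (3 without the first 96 h library). The protease Mmp3 rose by 2.38, and the inhibitor Timp1 and the plasminogen activator Plau fell, with log2 changes of -1.17 and -0.73. Among other inhibitors Timp2 rose by 0.51 and Timp3 had no call at 0.008. Bone and cartilage markers summed to 23 to 28.1 CPM in GM, 10.5 to 12.8 CPM at 60 h and 19.2 to 21.5 CPM at 96 h, with Acan and Ibsp at 0 at 60 and 96 h. Of 8 such markers 2 were tested, Sox9 and Runx2, and both rose. Sox9 is in the set of the adjusted fit, where neither was called (0.20 and 0.10). The part of these markers in the matrix changes was not tested.

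The smooth muscle type cytoskeleton, which C2C12 myoblasts carry as stress fibres, fell in 13 of 19 cases and rose in 3, with a median of -0.52. Without the second 96 h library, under total-count scaling or without Rn7s1 and Rn7s2, 5 rose. Tagln had 155, 166 and 161 CPM at 60 h and 46.1, 40.1 and 50.7 CPM at 96 h (-1.82 ± 0.06) and did not overlap. The calponin Cnn1 (-2.2), smooth muscle gamma-actin Actg2 (-1.63), the tropomyosin Tpm4 (-1.1), vimentin, Vim (-0.75), and beta-actin, Actb (-0.64), fell, and the kinase Mylk (1.1), talin, Tln1 (0.44), and vinculin, Vcl (0.33), rose. Acta2 had no call at 0.08. Neuron and glia markers summed to 70.6 to 74 CPM in GM, 44.5 to 46.9 CPM at 60 h and 18.6 to 23.2 CPM at 96 h. Rbfox3, Snap25 and Sox10 were at 0 at 60 and 96 h. In that list the tubulin Tubb3 fell by 1.17, and Mbp (-0.61) had no call. Nefl, with the largest fall among well-measured genes, is also a neuronal filament gene, and what lowered it was not tested.

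Of 16 genes around the insulin-like growth factors 11 rose and 3 fell, with a median of 0.48. Igf2, a growth factor made by differentiating myoblasts, had 12.3, 12.6 and 13.9 CPM at 60 h and 31.7, 25.6 and 30.6 CPM at 96 h (1.18 ± 0.08), and its binding protein gene Igfbp2 had 407, 438 and 420.1 CPM at 60 h and 140.3, 139 and 149 CPM at 96 h (-1.56 ± 0.07). The groups of both were apart, in opposite directions. The receptors Igf1r and Insr rose by 0.80 and 0.67 and the adaptor Irs2 by 0.72. Follistatin, Fst, which binds activin and myostatin, had 25.3, 25.6 and 28.1 CPM at 60 h and 105, 103 and 94 CPM at 96 h (1.94 ± 0.08), and the non-coding imprinted gene H19 had 4901, 4730.0 and 5022 CPM at 60 h and 6921, 6595 and 6899 CPM at 96 h (0.48 ± 0.06). Of 20 atrophy and autophagy genes 10 rose and 2 fell, with the ubiquitin ligase Trim63 at 1.3 ± 0.08 and the autophagy kinase Ulk1 at 1.02.

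Amino acid supply and protein folding genes went separate ways. Of 29 ATF4 targets, the genes of the amino acid and integrated stress response, 24 rose and none fell (median 0.49). Slc7a5, the large neutral amino acid transporter, had 35, 32 and 35.1 CPM at 60 h and 97.8, 91.3 and 104 CPM at 96 h (1.52 ± 0.07), and Slc7a3 (2.16), Chac1 (1.09), the hormone gene Fgf21 (1.06) and Trib3 (1.02) rose as well, while Ddit3 (CHOP) had no call at 0.10. Of 20 chaperones of the endoplasmic reticulum 5 rose and 12 fell. Calreticulin, Calr, had 982, 1018 and 1025 CPM at 60 h and 597, 614 and 631 CPM at 96 h (-0.72 ± 0.04) with no overlap, Pdia6 and Hsp90b1 fell, with log2 changes of -0.72 and -0.71, and Hspa5 (BiP) had no call at -0.08. Herpud1, of protein degradation at that membrane, rose by 0.73. Cholesterol and fatty acid synthesis genes fell in 19 of 33 cases and rose in 8 (median -0.20). Of 18 heat shock protein genes 8 rose and 5 fell, with the small ones Hspb3 (1.95) and Hspb2 (1.09) higher and Hspb1 (-0.07) without a call. Of 20 oxidative stress and metallothionein genes 4 rose and 11 fell. Nqo1 (-1.21) and the metallothionein Mt1 (-0.69) were lower, and Gpx3 (0.84) and Fth1 (0.47) higher. Of 17 interferon response genes 1 rose (2 without the third 60 h library) and 7 fell, with Ifit1 at -1.44, and of 16 clock genes 7 rose and none fell, with Per1 at 1.21.

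The 86 transcripts of the adjusted fit were low at 60 h and high at 96 h. They are the protein-coding transcripts that stood at least 0.5 log2 units above both other libraries in 1 of the 3 libraries at 24 h. Their mean log2 CPM over all 18 libraries was 3 or more. The gap at 24 h used no library of 60 or 96 h, but the level filter included them. Earlier results of these data were known when the set was chosen. Its mean log2 CPM was 5.22 ± 0.0847 (SD, n = 3) in GM, 4.55 ± 0.0355 at 12 h, 4.95 ± 0.459 at 24 h, 4.8 ± 0.107 at 48 h, 4.38 ± 0.0354 at 60 h and 5.38 ± 0.0563 at 96 h. Thus 60 h was the lowest and 96 h the highest group. From 60 to 96 h, 82 of the 86 rose and 1 fell, with a median of 1.02, while of the 9119 genes from which the set was drawn 2585 rose and 2874 fell. Polr2a, the largest subunit of RNA polymerase II, had 10.7, 10.3 and 9.89 CPM at 60 h and 57.2, 59.9 and 66.6 CPM at 96 h (2.57 ± 0.30, adjusted p 3.9e-07). Of 24 chromatin and transcription regulators, listed for their long transcripts though lengths were not measured here, 24 rose, 11 of them in the set and 13 outside it. Among them were the histone methyltransferases Kmt2d (1.99) and Kmt2a (1.26), and the remodeller subunit Arid1a (1.36).

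In the adjusted fit, with the level of the 86 transcripts in each library as a term beside group, 1381 genes were higher and 1451 lower, 2832 in all (18.5%). That level lies at its extremes in the 2 groups compared, so such a fit gives up precision as well. DNA replication then had 0 higher and 37 lower, mitosis 0 higher and 40 lower, histones 0 higher and 33 lower, adult fast isoforms 10 higher and 0 lower and titin, Z-disc and M-band genes 24 higher and 0 lower. The chromatin and transcription regulators had 5 higher and 0 lower, ribosomal proteins 0 higher and 3 lower and junction genes 7 higher and 0 lower. Citrate cycle and fatty acid oxidation genes had 5 higher and 4 lower and heat shock proteins 4 higher and 0 lower. Oxidative stress genes had 4 higher and 6 lower and matrix glycoproteins and proteoglycans 5 higher and 6 lower. Matrix proteases and inhibitors had 8 higher and 2 lower. Cholesterol and fatty acid synthesis genes had 3 higher and 9 lower, collagens 3 higher and 8 lower, endoplasmic reticulum chaperones 5 higher and 6 lower, ATF4 targets 15 higher and 0 lower and muscle energy genes 7 higher and 1 lower. Glycolysis had 2 higher and 8 lower, Id and Notch genes 2 higher and 4 lower, the dystrophin complex 7 higher and 1 lower, laminins and basement membrane 3 higher and 3 lower, nuclear respiratory genes 9 higher and 0 lower and myogenic factors 6 higher and 1 lower. For CDK inhibitors the counts were 7 higher and 4 lower, for satellite and reserve cells 4 higher and 2 lower, for fusion 7 higher and 1 lower, for splicing 6 higher and 1 lower, for atrophy and autophagy 6 higher and 0 lower and for the clock 4 higher and 0 lower. The smooth muscle type cytoskeleton had 2 higher and 11 lower, the insulin-like growth factor axis 8 higher and 3 lower, interferon response genes 0 higher and 5 lower, slow isoforms 8 higher and 1 lower, thin filament genes 13 higher and 0 lower, calcium store genes 24 higher and 1 lower and developmental isoforms 6 higher and 0 lower. The log2 change was 3.48 for Myh8, 2.84 for Myh1, 1.88 for Mef2c, 1.16 for Myog, -2.59 for Ccne2 and -3.25 for Nefl, all still called. Members of the set lose change by construction, since their own level is part of the term: it was 0.94 for Hspg2, 0.41 for Ttn and 0.33 for Fn1. There was no call for Polr2a (0.47, adjusted p 0.051), Tead1 (0.17), Igf1r (0.07), Kmt2d (0.23), Kmt2a (-0.13), Arid1a (0.41) and Sox9 (0.20). Outside the set, the call of these genes of the text was lost although the change stayed at 1 or more in size: Myh2 (1.71), Mybpc2 (2.48), Actn2 (1.83), Hspb7 (1.65), Colq (2.07), Dmd (3.73, adjusted p 0.22), Ppp1r3a (5.1), Slc7a3 (2.01), Hspb3 (2.82), Mmp3 (1.77), Cnn1 (-2.04), Rbfox1 (2.56) and Tnni3 (1.74). With smaller changes it was lost for Myod1 (0.29), Id1 (-0.56), Nebl (-0.85), Calm3 (-0.15), Agrn (0.34), Dtna (-0.25), Cox6a2 (0.95), Aldoc (-0.70), Vgll2 (-0.72), Eya1 (-0.27), Rac1 (-0.11) and Jam2 (-0.21). The same held for Notch2 (0.14), Notch3 (0.34), Spry1 (0.47), Pax7 (0.28), Cdkn2d (-0.39), E2f2 (0.43), Chac1 (0.64), Tln1 (0.17), Srsf3 (-0.21) and Nppb (-0.52). It held too for the markers Pdgfra (0.0085) and Runx2 (0.10). What sets the level of these transcripts was not tested.

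**Figure D5:**
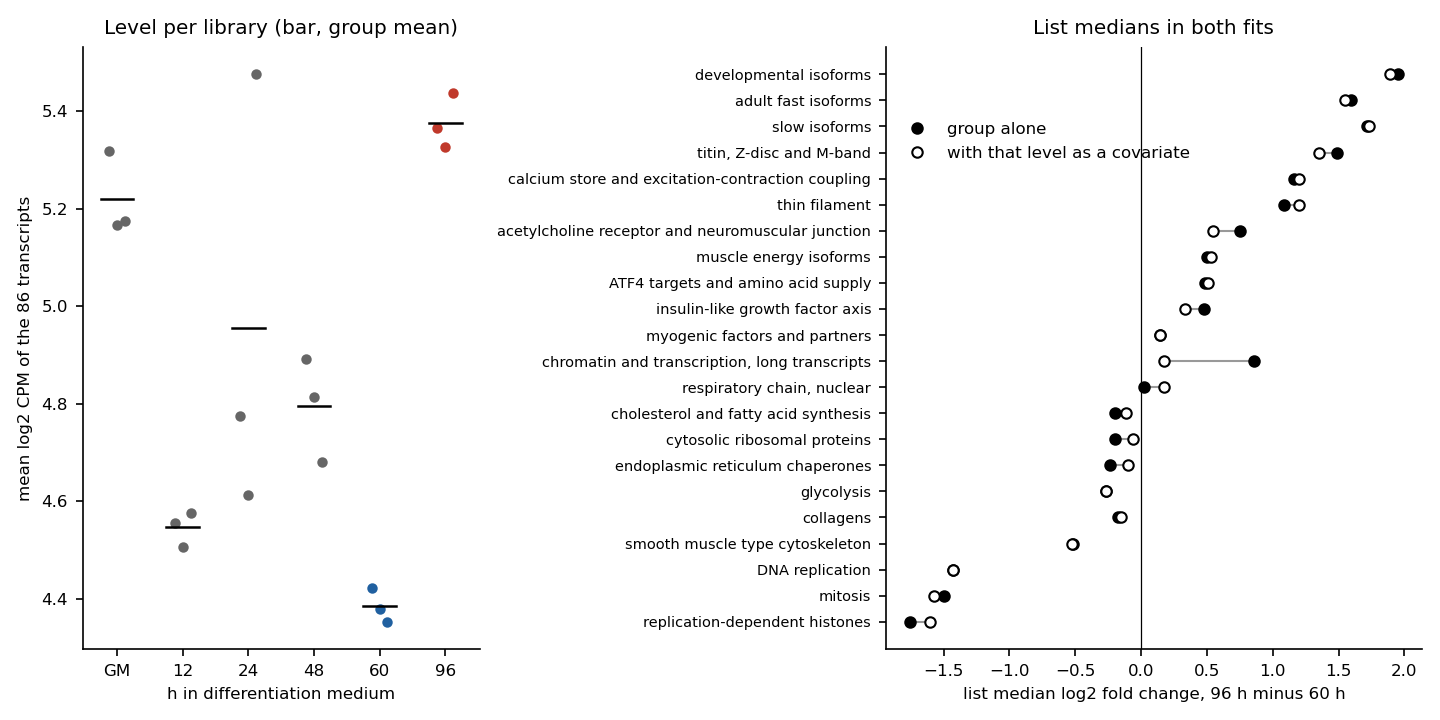
Left, mean log2 CPM of the 86 transcripts in each of the 18 libraries (vertical axis) by group (horizontal axis), with group means as bars: the 60 h libraries are the lowest and the 96 h libraries are among the highest. Right, median log2 fold change from 60 to 96 h (horizontal axis) of 22 gene lists in the fit with group alone (filled points) and with that level as a covariate (open points), where the chromatin and transcription list, 11 of whose 24 members are in the set, moves most.

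Non-coding genes were few among the changes. The largest of those well measured were Brip1os (-1.3 ± 0.04), Gm42743 (-1.2), 2610203C20Rik (-0.85) and Dleu2 (-0.67), lower, and Abhd1 (0.58), which the table lists as non-coding, higher. Several lie beside or across coding genes, and whether counting used strand is not stated in the labels, so reads of an overlapping partner cannot be told apart from theirs.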

How the data were processed

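Total RNA of C2C12 cells was sequenced as strand-specific paired reads, per the labels' protocols. The authors deposited one table of whole-number read counts per gene for 18 libraries, and tools listed in the submitters' processing notes include STAR and RSEM 1.3.0, with the mm10 build, without saying how whole numbers were made from RSEM's estimates. The authors' ATAC peak lists give a fold enrichment (ratio to background) and a −log10 p for each peak, and each list covers a whole group, so peaks have no replicates. The submitters' processing notes name Bowtie2 2.2.6 and MACS2 2.2.7 for them.

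Counts were tested with edgeR 4.0.16 (R 4.3.3): genes were filtered by group, libraries scaled by trimmed mean of M-values, and all 18 libraries fitted with group as the sole term by quasi-likelihood, with 12 residual degrees of freedom and p-values adjusted by Benjamini and Hochberg over 15303 genes. The SE was taken as the log2 change over the root of the F statistic. DESeq2 1.42.0 was an alternative. On counts simulated for 15303 genes, of which 15011 passed the filter, 80.6% of 67 genes changed 1.5-fold, 92.5% of 67 changed 2-fold and all 66 changed 4-fold were called, and 11 of 15103 unchanged genes. The genes changed there had a mean of at least 1 CPM. In the data 47.2% of genes were called, far more than were changed in the simulation, so its shares may not carry over. The 3 libraries of each group differed by more than counting noise and were kept as 3. Members and gene lists were chosen with earlier results of these data known. Named genes are the 15 largest rises and falls whose mean log2 CPM reached 3 without overlap, a panel of 30, up to 5 of the largest calls and 3 contrary ones of each list, and 5 non-coding genes. Others named with values were chosen after their values were seen. Motifs were searched on both strands over 250 bases before each start, and matches may overlap. A few named results are not reported here. Domains and loops of chromosome contacts were not used.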

Additional observations from a re-analysis of the deposited data

How the results depend on the processing

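The counts of 3455 higher, 3769 lower and 1181 genes at 2-fold or more were recomputed under other scalings, filters, libraries and tools. With the mean of the 86 transcripts added as a term they were 1381, 1451 and 795. Over the remaining settings, among them the 6 libraries alone, higher calls ran from 3151 to 3900, lower calls from 3309 to 4174 and 2-fold calls from 969 to 1279, with DESeq2 at 3438, 3440 and 1122. Leaving out 1 of the 6 libraries, or the third of 24 h, gave 3079 to 3708, 3194 to 3629 and 1144 to 1222. Of 306 named genes, 294 to 306 kept their direction and call outside the covariate fit, where 205 did and 91 lost the call. The other 10 changed sign there, also without a call: Ndufb3 0.050, Dnaja1 0.086, Gabarapl1 0.024, Psmb1 0.072, Psma1 0.12, Hnrnpa1 0.0020, mt-Nd4 -0.039, mt-Nd5 -0.085, mt-Nd1 -0.12 and Kmt2a -0.13. The falls of Dock1, Rac1, Jam2 and Eya1 and the rise of Tnni3 also lost the call under at least 1 other setting.

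With the replicate number as a block (replicate block) the counts were 3390, 3725 and 1171. Libraries with the same number did not deviate together between 60 and 96 h (correlations -0.011, -0.0431 and 0.0587), so the numbers were not read as pairs. Summing table lines of 1 symbol, chosen after seeing the data, gave 3461, 3764 and 1177. With no count filter, 1279 genes were called at 2-fold or more, against 1181 with it.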

Other observations

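Some further genes with large changes belong to no list above and were chosen after their values were seen. Aqp1, a water channel of the cell membrane, had 108, 115 and 114 CPM at 60 h and 25.1, 25.5 and 27.6 CPM at 96 h (-2.1 ± 0.05), and the secreted lipase inhibitor Angptl4 changed by 1.4 from 48 to 60 h and by -2.09 ± 0.09 from 60 to 96 h, on fits that share the 60 h libraries. The fatty acid binding protein Fabp5 (-1.97), the membrane protein Tm4sf1 (-1.74) and the microtubule regulator Stmn2 (-2.02) fell as well. Stmn2, like Nefl, is best known from neurons.

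Among the rises, the neuregulin receptor Erbb3 had 45.3, 40.5 and 46.2 CPM at 60 h and 138, 146 and 152 CPM at 96 h (1.73 ± 0.06), and the muscle subunit of the AMP-activated kinase Prkag3 (1.79 ± 0.09) rose without overlap. The muscle genes Itgb1bp2 (melusin, 2.12), Fndc5 (the irisin precursor, 1.52), Hfe2 (hemojuvelin, 1.32), Nmrk2 (a nicotinamide riboside kinase, 1.43) and Tmem182 (1.34) rose too. The endocytic receptor Lrp1 rose by 2.02 ± 0.20 and is among the 86 transcripts of the adjusted fit.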
